A study of Mus musculus with 4 samples.

Results

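Twist1, Twist2, Foxc1, Foxc2, Prrx1, Prrx2, Scx and Tnmd are genes of head and limb mesenchyme and of tendon. They were read on mouse microarrays through every probe that carries such a gene name in the scanner files, which gave 13 of 41174 probes and 8 of 27630 genes or unnamed transcripts. Prrx1 had 6 probes and every other gene had 1. The genes were chosen by their measured values, since limb against brain and CKO against WT were already known on these arrays. Their differences are therefore given as a description, with no test.

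The arrays hold RNA of mouse embryos at E13.5 (E, embryonic day) in 4 groups: CKO limb, WT limb, CKO brain and WT brain. CKO embryos carried floxed Rest and Cre alleles that doxycycline switches on, and WT embryos are labelled wild type. Doxycycline treatment over E8.5-E13.5 is recorded for all 4 samples, WT included, and the genetic background of all 4 is 129 and C57BL/6. Each group had 1 array, so no value has a replicate error. The promoter and cells that drive the inducible Cre, the alleles that the WT embryos carry and whether embryos were pooled are not given in the sources used here.

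Mesenchyme is the loosely packed embryonic tissue that gives rise to cartilage, bone, tendon, dermis and the fibroblasts around organs. Twist1 and Twist2 are basic helix-loop-helix (bHLH) transcription factors that keep mesenchymal cells undifferentiated, Foxc1 and Foxc2 are forkhead factors of head and paraxial mesenchyme, and Prrx1 and Prrx2 are paired-related homeodomain factors of limb and facial mesenchyme. Scx (scleraxis) is the bHLH factor that marks tendon progenitors, and Tnmd (tenomodulin) is a membrane glycoprotein of maturing tendon. Brain tissue holds such cells mainly in its coverings, the meninges, and around its vessels, and Foxc1 is required for the meninges to form.

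Signal is given as a log2 level, the log2 of a probe's intensity minus the 75th percentile of log2 intensity on its own array, so that 0 is as bright as that percentile. Differences are taken between arrays for 1 probe. Across probes, levels serve to choose the brightest probe of a gene, to class probes by brightness and to sum a list, where bright probes weigh most. Between 62.7% and 70.7% of 43379 spots on an array were well above background. Of the 13 probes, 13 were well above background on the CKO limb array, 13 on WT limb, 11 on CKO brain and 10 on WT brain, and none was saturated. Technical error was taken from 245 probes that each array carries 10 times, using those well above background on both arrays, 181 in limb and 175 in brain. The median SD of a difference between single spots, for CKO minus WT, was 0.083 log2 in limb and 0.083 in brain. For dim probes, with a mean level of the arrays compared below -3, it was 0.21 in limb (28 probes) and 0.17 in brain (26 probes). Variation between embryos or labelling reactions is not in this error, and with 1 array per group the number of arrays sets the precision.

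Rest, the targeted gene, encodes a zinc-finger repressor of neuronal genes. At its probe on chr5:77709928-77709987 (mm9) it had a log2 level of -1.56 on CKO limb, 2.41 on WT limb, -3.73 on CKO brain and -0.16 on WT brain, lower in CKO by 15.7-fold in limb and by 11.9-fold in brain. Its other probes were lower in CKO too, by 4.03-fold and 17.2-fold in limb and by 1.88-fold and at least 6.60-fold in brain. Which exons are floxed is not stated in the labels. The tissue labels were set against marker genes. The limb minus brain median was 6.90 log2 in CKO and 7.23 in WT over the skeletal muscle list, and -3.81 in CKO and -4.94 in WT over the neuron list, against 0.01 in CKO and 0.00 in WT over all genes detected.

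Each probe is a DNA oligonucleotide of 60 bases. The probes that carry the results are shown by their 5′ 30 bases, in lower case, to place each signal in its transcript; Prrx1 probes are numbered along the gene, from its 5′ end.
Twist1 probe: atggtaacaatcagaggaattttaacacct
Twist2 probe: ttattgagatattttaccagctaagtgact
Foxc1 probe: gttacggaccaaacaccagaaagtgttcca
Foxc2 probe: cacaccaaaagactttaaaatttcaatctc
Prrx1 probe 2: cacattacccggatgcttttgttcgagaag
Prrx1 probe 3: agcgagccatgctggccaataaaaacgctt
Prrx1 probe 4: ctgaaaattttcttagatgacacacacata
Prrx1 probe 5: actgaaggccaaggaatatagtttacagag
Prrx2 probe: tgttgggtgctggaagcagttgaacaagtc
Scx probe: tgaacagagagatggacaggcgggtgatgg
Tnmd probe: aaattctaaaattctggagatttgcgataa
The longest run of bases shared by probes of different genes among the 13 was 12, over 63 pairs of such probes.

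All 8 genes were brighter in limb than in brain in WT embryos, by 2.52-fold for Foxc1 and by 283-fold for Twist2 at the ends of the measured range. In CKO embryos 6 of the 8 were at least 2-fold higher in limb, and the exceptions were Foxc1 and Foxc2. The median difference over measured probes was 3.63 log2 in CKO, from -0.45 to 6.55 over 11 probes, and 4.58 in WT, from 1.33 to 8.15 over 10 probes. Counting bounds, 11 of the 13 probes in CKO and 13 of 13 in WT were at least 2-fold higher in limb, and none was as much lower. Over all probes 16.2% in CKO and 17.8% in WT were at least 2-fold higher in limb, and 14.8% in CKO and 15.6% in WT as much lower. Limb against brain was among the contrasts used to choose these genes, so nothing is read from that gap. In RNA from a whole tissue, fewer cells of a type and less RNA per cell cannot be told apart.

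**Figure D1:**
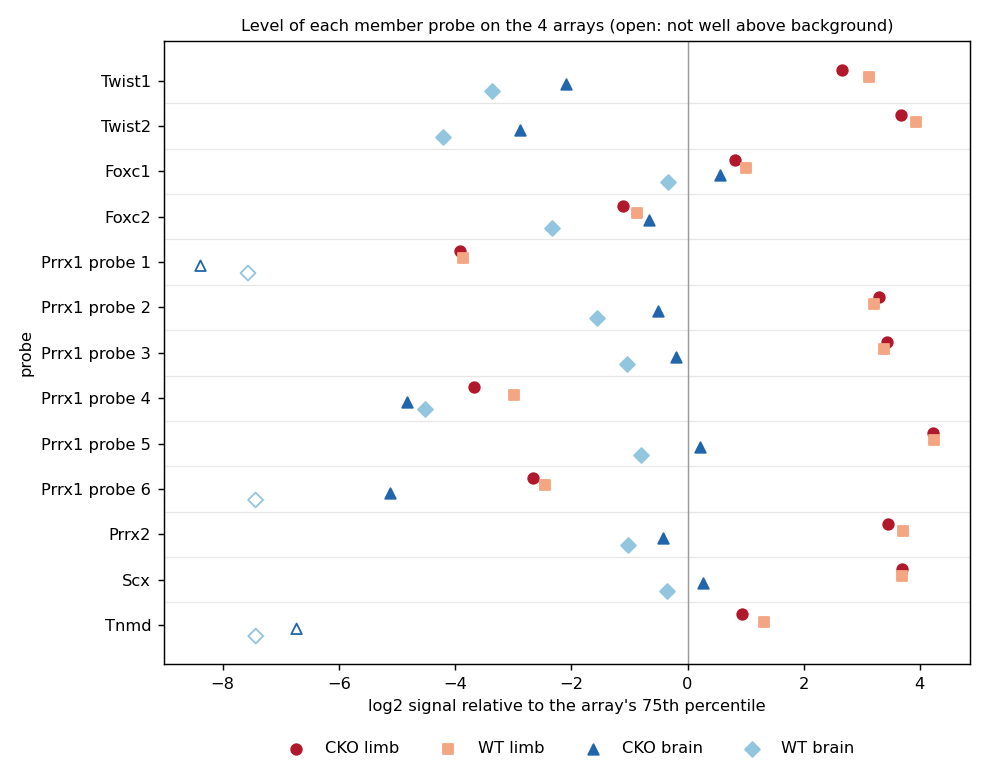
Log2 level of each of the 13 probes (x axis, log2 signal relative to the array's 75th percentile) on the CKO limb, WT limb, CKO brain and WT brain arrays, 1 point per array, with open symbols where the probe was not well above background. The limb points lie to the right of the brain points for every probe but that of Foxc2, where CKO brain, at -0.66, lies above both limb arrays.

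The Twist genes had the widest measured gap between tissues. The Twist1 probe (chr12:34644411-34644470) had a log2 level of 2.66 on CKO limb, 3.12 on WT limb, -2.10 on CKO brain and -3.36 on WT brain. Both limb arrays were thus far above both brain arrays, 27.0-fold in CKO and 89.2-fold in WT. The Twist2 probe (chr1:93744519-93744577) had 3.67 on CKO limb, 3.93 on WT limb, -2.88 on CKO brain and -4.21 on WT brain. The gap was 93.6-fold in CKO and 283-fold in WT. The brain signal of Twist1 was 3.70% of the limb signal in CKO and 1.12% in WT, and that of Twist2 was 1.07% in CKO and 0.353% in WT. With normexp background correction, an alternative that adds an offset to every intensity, the WT gap was 5.70 log2 for Twist1 in place of 6.48, and 6.88 for Twist2 in place of 8.15.

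The forkhead genes had the narrowest gap, and it was narrower in CKO than in WT embryos. Foxc1, at chr13:31901257-31901316, had log2 levels of 0.82 on CKO limb, 1.0 on WT limb, 0.55 on CKO brain and -0.33 on WT brain. Limb was 1.20-fold above brain in CKO and 2.52-fold above it in WT. For Foxc2, at chr8:123642693-123642752, the levels were -1.11 on CKO limb, -0.88 on WT limb, -0.66 on CKO brain and -2.33 on WT brain. The order of the arrays differed here from that of the other genes, with CKO brain the brightest and WT brain the dimmest. Foxc2 was 1.37-fold lower in limb than in brain in CKO and 2.74-fold higher in limb in WT, and its CKO brain signal was 137% of that of CKO limb.

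Of the paired-related genes, Prrx2 and Prrx1 probes 2 to 5 were well above background on all 4 arrays, and Prrx1 probes 1 and 6 were not. Prrx1 probe 5 (chr1:165178384-165178443), the brightest Prrx1 probe on average, had a log2 level of 4.23 on CKO limb, 4.24 on WT limb, 0.21 on CKO brain and -0.80 on WT brain. Limb exceeded brain 16.2-fold in CKO and 33.0-fold in WT, while the limb arrays did not differ beyond technical error. Prrx2, at chr2:30736593-30736653, had 3.46 on CKO limb, 3.72 on WT limb, -0.42 on CKO brain and -1.03 on WT brain. Its limb signal was 14.6-fold that of brain in CKO and 26.8-fold in WT.

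The tendon genes differed in whether brain gave a signal at all. Scx, at chr15:76289708-76289767, had log2 levels of 3.70 on CKO limb, 3.68 on WT limb, 0.26 on CKO brain and -0.36 on WT brain. Limb was 10.8-fold above brain in CKO and 16.5-fold in WT, and the brain arrays were both above background. Tnmd, at chrX:130397487-130397546, had 0.94 on CKO limb and 1.32 on WT limb and was not well above background in brain, where its measured values were -6.73 in CKO and -7.43 in WT. Against the dimmest signal called above background on each brain array, or its own where brighter, Tnmd was at least 140-fold higher in limb in CKO and at least 103-fold in WT. These bounds are 7.13 log2 in CKO and 6.68 in WT, and with normexp correction 4.74 in CKO and 4.74 in WT.

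In brain, the 7 genes that could be measured were all higher in CKO than in WT by their brightest probes, with Prrx1 probe 4 as the exception among probes. Foxc2 differed most, at 3.18-fold, followed by Twist2 at 2.52-fold, Twist1 at 2.41-fold and Prrx1 probe 5 at 2.02-fold. Foxc1 was 1.85-fold higher, Scx 1.54-fold and Prrx2 1.53-fold, and Tnmd had no value. Taking the brightest probe of each gene, the median of the 7 genes was 1.02 log2, from 0.61 to 1.67, and the median over all probes measured on both brain arrays was -0.03. Each of these 7 differences exceeded the technical error of its brightness class, which was at most 0.17.

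Probe by probe, 10 of the 13 were measured on both brain arrays, 1 gave a bound and 2 had no value. The CKO signal was at least 2-fold higher at 5 probes, those of Foxc2, Twist1 and Twist2 and Prrx1 probes 2 and 5, and none was as much lower. Over all probes 1.15% were at least 2-fold higher in CKO brain and 1.15% as much lower, and nothing is read from this either. Such differences were less common among bright probes: 1.58% of dim, 0.710% of middle and 0.197% of bright probes measured on both arrays were as much higher in CKO brain. With a normexp background correction, which adds an offset of 50 to every intensity, 1 probe, that of Foxc2 at 1.36, stayed at least 2-fold higher. Under that correction Twist1 differed by 0.80 and Twist2 by 0.64. With quantile normalization and with the array median the count was 4. Prrx1 probe 5 then fell just under 2-fold, at 0.999 with quantile normalization and 0.990 with the array median.

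On the linear scale, before scaling between arrays, Foxc2 gave an intensity of 634 on CKO brain against 179 on WT brain. Foxc1 gave 1469 on CKO brain against 716 on WT brain. Twist1 gave 234 on CKO brain against 87.5 on WT brain, and Twist2 136 on CKO brain against 48.6 on WT brain. For each of these genes the CKO brain signal was the brighter of the pair. The 75th percentile of intensity was 1002 on CKO brain and 900 on WT brain, so the unscaled pairs overstate the differences. After scaling, Foxc2 was 3.18-fold higher in CKO brain and Foxc1 1.85-fold.

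In limb none of the 8 genes was 2-fold different between CKO and WT. Twist1 was 1.37-fold lower in CKO limb and Tnmd 1.30-fold lower. Twist2 was 1.20-fold lower, Prrx2 1.20-fold, Foxc2 1.18-fold and Foxc1 1.14-fold. These 6 differences exceeded the technical SD of their brightness class, which was 0.070 for bright probes and 0.094 for Foxc2. Prrx1 probe 5 differed by -0.01 log2 and Scx by 0.01, both within technical error, and the sign for Prrx1 changed with the array median or normexp. The 8 genes had a median of -0.25 log2 by their brightest probes, from -0.45 to 0.01, and the median over all probes measured on both limb arrays was -0.04.

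All 13 probes were measured on both limb arrays, 3 of them above and 10 below 0, with a median of -0.21. None was at least 2-fold higher or lower in CKO limb, where 2.25% of all probes were as much higher and 1.95% as much lower. The widest limb difference belonged to Prrx1 probe 4, at -0.69, a dim probe with a technical SD of 0.21.

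**Figure D2:**
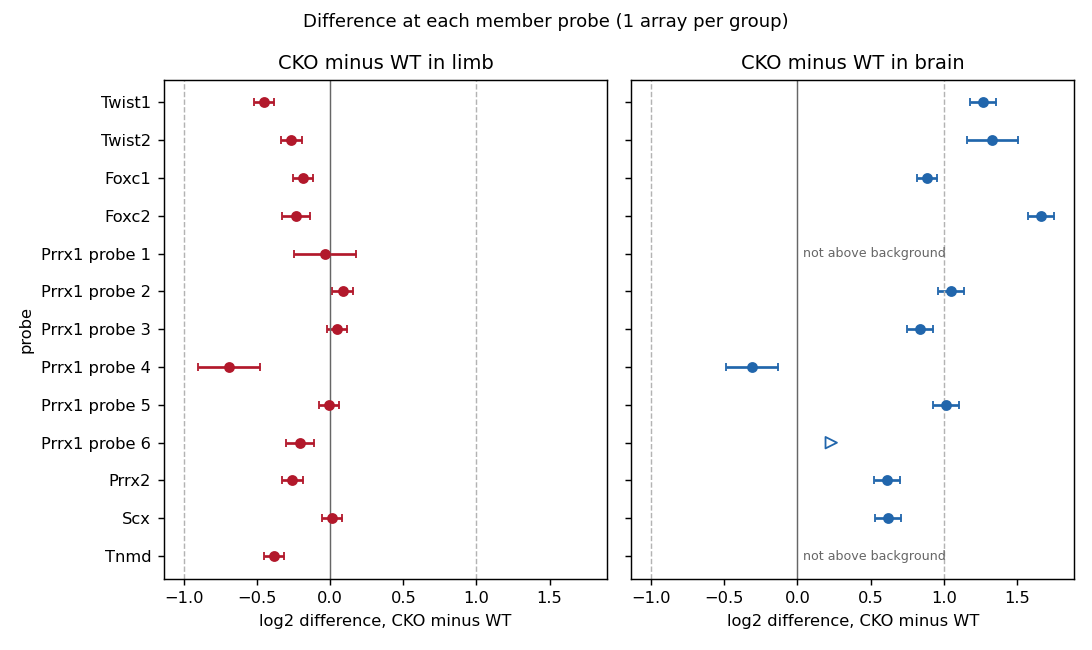
CKO minus WT log2 difference of each probe in limb (left) and in brain (right), with bars of 1 technical SD for its brightness class and 1 array per group; dashed lines mark 2-fold, and the open triangle is a lower bound. Limb differences lie between -0.69 and 0.09, and measured brain differences lie above 0 except for Prrx1 probe 4 at -0.31.

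For Foxc2, Twist1, Twist2, Foxc1 and Prrx2, CKO minus WT was above 0 in brain and below 0 in limb. The brain difference minus the limb difference was 1.90 log2 for Foxc2, 1.72 for Twist1 and 1.60 for Twist2. It was 1.07 for Foxc1, 1.03 for Prrx1 probe 5, 0.87 for Prrx2 and 0.61 for Scx. With 1 array per group this difference of differences was not tested.

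Prrx1 allowed a view along a gene, since its 6 probes span chr1 from 165177177 to 165213298 on the minus strand (mm9). Probes 2, 3 and 5, which lie 21.3, 25.3 and 34.9 kb downstream of probe 1, gave like values. Their CKO minus WT differences in brain were 1.05 for probe 2, 0.84 for probe 3 and 1.02 for probe 5, and in limb 0.09, 0.05 and -0.01 in the same order. Limb minus brain was 3.80, 3.63 and 4.02 in CKO for probes 2, 3 and 5, and 4.76, 4.42 and 5.04 in WT.

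The other 3 Prrx1 probes were below -2 on every array and stood apart from these. Probe 4 (chr1:165183205-165183264), which the array file describes as an unclassified cDNA clone, had log2 levels of -3.68 on CKO limb, -2.98 on WT limb, -4.83 on CKO brain and -4.52 on WT brain. It was lower in CKO in both tissues, with differences of -0.69 in limb and -0.31 in brain, opposite in brain to probes 2, 3 and 5. The brain difference was under 2 technical SDs, at 0.17 per SD for dim probes, so its direction is uncertain. Limb exceeded brain by 2.22-fold in CKO and 2.89-fold in WT at this probe. With normexp correction that gap was 0.68 log2 in CKO and 0.91 in WT, and the gap at probe 6 in CKO was 1.34 in place of 2.47. Probe 1, also described as an unclassified cDNA clone, had -3.91 on CKO limb and -3.87 on WT limb and was not well above background in brain. Probe 6 had -2.66 on CKO limb, -2.45 on WT limb and -5.13 on CKO brain and was not well above background on WT brain, so that CKO brain was higher by at least 0.23 log2. Its limb difference was -0.21.

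**Figure D3:**
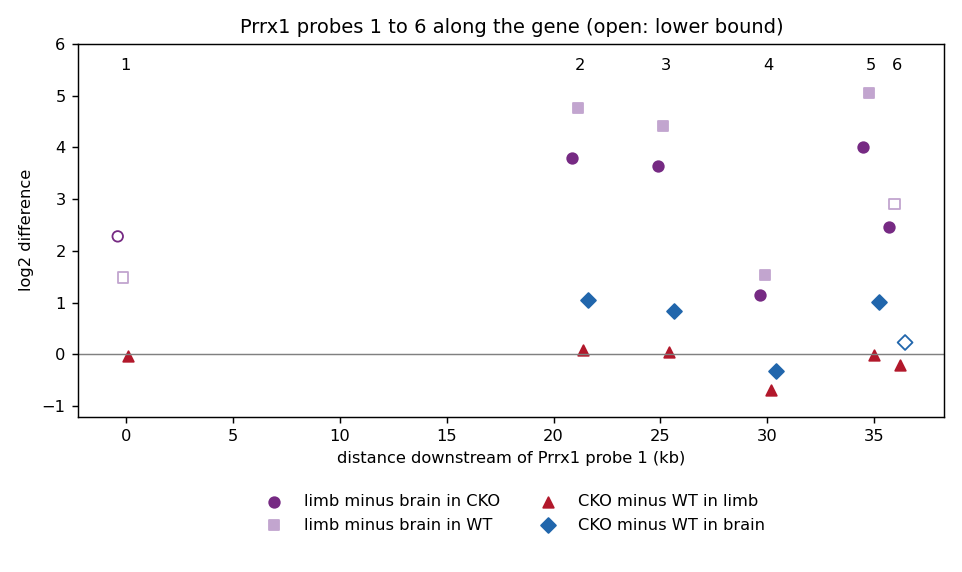
Log2 differences at Prrx1 probes 1 to 6 against their distance downstream of probe 1 in kb, for limb minus brain in CKO and in WT and for CKO minus WT in limb and in brain; open symbols are lower bounds, and points are set slightly apart sideways. Probes 2, 3 and 5 share values near 4 to 5 for limb minus brain in WT and near 1 for CKO minus WT in brain, and probe 4 lies below them in each comparison.

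Other genes of mesenchyme and tendon were described through lists. The tendon and connective tissue list holds collagens, small proteoglycans and signals of tendon. In CKO brain against WT brain, 28 of its 30 genes were detected, 6 were at least 2-fold higher and 1 as much lower, with a median of 0.62. Over all 18944 genes detected in brain, 1.37% were as much higher and 1.22% as much lower, with a median of -0.01. Collagen XII (Col12a1) was 3.95-fold higher in CKO brain, the type I collagen gene Col1a2 2.10-fold, the collagen-binding proteoglycan fibromodulin (Fmod) 2.06-fold and its relative lumican (Lum) 2.04-fold. Col1a1, the partner of Col1a2 in type I collagen, was 2.50-fold lower in CKO brain, and it was also 4.24-fold lower in CKO limb.

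In CKO limb against WT limb, none of the 30 tendon and connective tissue genes was at least 2-fold higher and 2 were as much lower, Col1a1 and the corneal and tendon proteoglycan keratocan (Kera, 3.06-fold), with a median of -0.10. Over all 18447 genes detected in limb, 2.49% were as much higher and 2.16% as much lower, with a median of -0.02. The list's limb minus brain median was 3.21 in CKO and 3.78 in WT. At least 2-fold higher in limb were 28 of 30 genes in CKO and 28 of 30 in WT. Over all genes detected, 16.9% in CKO and 18.9% in WT were as much higher in limb. The summed level of the list, relative to the 75th percentile, was 616 on CKO limb, 784 on WT limb, 74.2 on CKO brain and 45.8 on WT brain.

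The list of other mesenchymal transcription factors has 36 genes. On the brain arrays 29 were detected. CKO was at least 2-fold higher for 6, against 1.37% of all genes detected in brain, and as much lower for none. The list median was 0.16. That median was 0.40 over the genes well above background on both brain arrays, and 0.34 with all probes of a gene averaged. The T-box factor Tbx15 was 3.01-fold higher in CKO brain, the somite factor Meox2 2.70-fold and the zinc-finger factor Snai2 2.67-fold. In limb 34 were detected, with a median of -0.07. None was called higher in CKO and 1 was as much lower, against 2.49% and 2.16% of all genes detected in limb. That gene was the T-box factor Tbx22, at a bound of -2.04 log2, since it was not well above background on CKO limb. Among those measured on both arrays Pax9 differed most, at 1.90-fold lower. The summed level of this list was 66.1 on CKO limb, 67.9 on WT limb, 23.7 on CKO brain and 23.4 on WT brain, so the sums of the brain arrays were close although single genes differed.

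Twist1, Twist2 and Scx bind DNA as pairs with the bHLH factors Tcf3, Tcf4 and Tcf12, and Id proteins block such pairing. None of these 7 partner and inhibitor genes was at least 2-fold different between CKO and WT in either tissue, with a median of -0.06 in limb and -0.01 in brain. Id3 had the widest difference, 1.53-fold higher in CKO brain.

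Some markers of other cell types that surround or lie near the brain were higher in the CKO brain sample as well. Over the cartilage list, 15 of 20 genes were at least 2-fold higher in CKO brain, with a median of 2.19. Of all genes detected in brain, 1.37% were as much higher. The collagen gene Col9a1 was 33.7-fold higher and aggrecan (Acan) 16.6-fold. The summed level of the cartilage list was 38.8 on CKO limb, 40.1 on WT limb, 31.9 on CKO brain and 12.6 on WT brain. Matn1, Matn3, Matn4, Hapln1, Comp and Epyc were not well above background on WT brain. Not all cartilage list genes were higher in CKO brain: Sox9 differed by 0.02 log2, Sox5 by -0.25, Sox6 by -0.16 and Chad by 0.08. Over the inner ear list, 5 of the 6 genes detected on a brain array were called higher: the otoconial protein gene Oc90 at 105-fold, Otor at 7.08-fold, Otog at 2.93-fold, and Tectb and Tecta by bounds of 2.65 and 1.32 log2. The inner ear median in brain was 2.10, and 0.90 with normexp correction. Its summed level was 5.93 on CKO limb, 8.11 on WT limb, 7.94 on CKO brain and 1.06 on WT brain. The part of cartilage or inner ear tissue in the brain values of Twist1, Twist2, Foxc1, Foxc2, Prrx1, Prrx2 and Scx was not tested.

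The meninges list, 14 of 14 detected in brain, had a median of 0.48 in CKO against WT brain. Of its genes only Lum, which is also in the tendon and connective tissue list, was at least 2-fold higher, at 2.04-fold. None was as much lower, and over all genes detected in brain 1.37% were as much higher and 1.22% as much lower. The growth factor gene Igf2 was 1.86-fold higher, the forkhead gene Foxd1 1.68-fold and the retinoid-binding gene Crabp2 1.59-fold. Other differences were smaller, at 0.03 log2 for Lmx1a, 0.05 for Ptgds, 0.15 for Zic1 and 0.18 for Cxcl12. The summed level of the meninges list was 323 on CKO limb, 336 on WT limb, 114 on CKO brain and 86.0 on WT brain. Of the skeletal muscle list, 15 of 20 genes were detected in brain, with a median of 0.57; the calls higher in CKO were Myl1 at 4.77-fold and Myh3 at 2.99-fold. Not all muscle list genes were higher in CKO brain: Pax7 differed by -0.38 log2, Myh8 by -0.25, Actc1 by 0.04 and Pax3 by 0.09. The muscle median was 0.23 with normexp correction. Of its defining factors, Myod1, Myf5 and Myf6 were not well above background on either brain array. Myog and the list genes Tnnt2, Tnni1 and Des were well above background on CKO brain and not on WT brain. The bound for Myog was 0.75 log2. The summed level of the muscle list was 517 on CKO limb, 384 on WT limb, 4.79 on CKO brain and 4.21 on WT brain. Bone genes, 6 of 8 detected, had a median of 0.00 in brain, which includes lower bounds of 0 for Runx2, Bglap and Phex. These and Dmp1 were well above background on CKO brain and not on WT brain, so the median does not show unchanged genes. Over the 2 bone genes above background on both arrays, at -0.13 and 0.80, it was 0.33. The endothelial list, 8 of 8 detected, had a median of 0.24. The neuron list had a median of -0.01 and the neural progenitor list -0.21 in brain. The part of meninges or muscle in the brain values was not tested either.

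In limb, list medians of CKO minus WT lay between -0.45 and 0.87. The cartilage median was -0.20, with the proteoglycan gene Epyc 2.69-fold lower, the meninges median -0.01 with the retinoic acid enzyme gene Aldh1a2 2.10-fold higher, and the bone median -0.33. Skeletal muscle genes had a median of 0.51 and neuron genes 0.87, or 1.43 with all probes of a gene averaged. Of 12 neuron genes, 5 were called higher in CKO limb, against 2.49% of all genes detected in limb. The 5 were Stmn2 at 7.15-fold, Tubb3 at 6.19-fold, Nefm at 3.90-fold, Rbfox3 at 3.25-fold and Elavl3 by a bound of 4.69 log2.

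**Figure D4:**
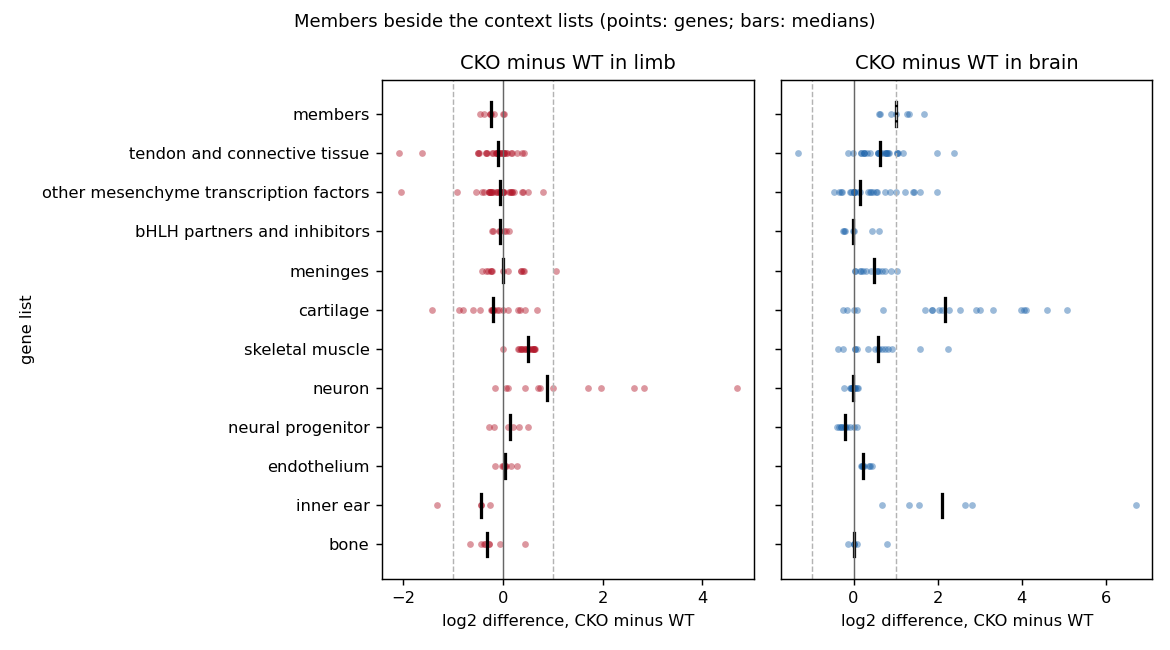
CKO minus WT log2 difference of each detected gene (points, bounds included) with the median of its list (black bar), in limb (left) and in brain (right), for the genes described (members) and 11 lists; dashed lines mark 2-fold. In brain the median is 1.02 for the members, 0.62 for tendon and connective tissue, 2.19 for cartilage and -0.01 for neurons, and in limb it is -0.25 for the members.

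Likeness of profile was measured as the Euclidean distance between the 4 log2 levels of 2 genes, each centred on its own mean, among 15631 genes well above background on all 4 arrays. This describes 4 arrays and says nothing of shared function or control. Near to Twist1 were Tbx15, at a distance of 0.47 log2, and Fap at 0.59. Nearest to Twist2 were Meox2 at 0.22, Agtr2 at 0.67 and Synpo2l at 0.69. Tbx15 and Meox2 are also members of the list of other mesenchymal transcription factors.

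Foxc1 had S100b at 0.15, Xlr at 0.19 and Pgap3 at 0.20. Foxc2 had Mia at 0.40, Aldh1a7 at 0.41 and Myh2 at 0.46. Mia, a secreted protein gene of cartilage, had a log2 level of 1.62 on CKO limb, 1.61 on WT limb, 1.62 on CKO brain and -0.10 on WT brain, so WT brain alone was low. It is not in the cartilage list.

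Nearest to Prrx1 probe 5 were periostin (Postn), a matrix protein of connective tissue, at 0.16, an unnamed transcript at 0.18 and the collagen cross-linking enzyme gene Lox at 0.21. Prrx2 had osteoglycin (Ogn), a small proteoglycan, at 0.03, Eva1a at 0.12 and the collagen VI gene Col6a1 at 0.22. Scx had Pdgfra, the receptor that marks mesenchymal fibroblasts, at 0.07, Svep1 at 0.07 and Smtnl2 at 0.10. Tnmd was left out of this search because it was not well above background in brain.

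Promoters were read from RefSeq (GRCm38) as the 250 bases before the gene start, for the 6 of 8 genes matched there, which leaves out Foxc2 and Scx. Their GC content was 62.4% for Twist1, 68.8% for Twist2, 70.8% for Foxc1, 47.6% for Prrx1, 70.0% for Prrx2 and 38.4% for Tnmd, against a median of 52.4% over all 32851 promoters. The ratio of observed to expected CpG was 0.74 for Twist1, 0.79 for Twist2, 0.93 for Foxc1, 0.32 for Prrx1, 0.69 for Prrx2 and 0.22 for Tnmd, and its median over all promoters was 0.37. Tnmd, the gene not well above background in brain, had the lowest value of both measures.

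Both strands were searched for 4 motifs, and no matches of different motifs shared a base in these promoters. The E-box CANNTG, the letters that bHLH factors bind, was in none of the 6 and in 66.2% of all promoters. CCAAT was in 3 of the 6, those of Twist1, Twist2 and Foxc1, and in 33.8% of all promoters. TATAA was in those of Twist1 and Tnmd and in 22.8% of all, and TAATTA, a homeodomain core, in those of Prrx1 and Tnmd and in 4.84% of all. A match is a description of letters and not a binding site, and a missing match says only that the letters are not in this window.

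The promoters that hold CCAAT belong to genes higher in CKO brain, as do those of Prrx1 and Prrx2, which hold none. They are shown whole, 5′ to 3′ on the plus strand, with CCAAT or its complement ATTGG in capitals. The match starts 89 bases before the gene start in Twist1 (chr12:33957421-33957670, GRCm38), 63 in Twist2 (chr1:91801211-91801460) and 101 in Foxc1 (chr13:31806396-31806645).
Twist1 promoter: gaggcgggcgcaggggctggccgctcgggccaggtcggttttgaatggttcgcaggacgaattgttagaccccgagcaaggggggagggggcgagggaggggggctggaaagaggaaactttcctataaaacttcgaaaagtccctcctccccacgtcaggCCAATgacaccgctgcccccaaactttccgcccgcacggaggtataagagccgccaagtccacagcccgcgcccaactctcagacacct
Twist2 promoter: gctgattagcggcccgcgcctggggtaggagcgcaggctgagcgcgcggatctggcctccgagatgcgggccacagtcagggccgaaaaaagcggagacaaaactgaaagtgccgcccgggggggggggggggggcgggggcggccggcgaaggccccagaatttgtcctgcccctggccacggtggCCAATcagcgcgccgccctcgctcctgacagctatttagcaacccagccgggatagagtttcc
Foxc1 promoter: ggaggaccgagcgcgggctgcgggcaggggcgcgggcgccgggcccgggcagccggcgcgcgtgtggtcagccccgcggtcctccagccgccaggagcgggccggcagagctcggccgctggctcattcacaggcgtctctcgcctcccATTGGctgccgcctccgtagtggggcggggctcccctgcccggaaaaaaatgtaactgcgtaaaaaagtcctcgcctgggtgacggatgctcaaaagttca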

How the data were processed

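Total RNA of each sample was amplified, labelled with Cy3 and hybridised to 1 single-colour array, per the labels' protocols. The submitters' processing notes name Agilent Feature Extraction 9.5.3.1. Per the file headers, each deposited intensity is linear, background-subtracted within its array and not normalized between arrays. A deposited table of the same intensities for the whole series served as an alternative.

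Control spots were left out, the 75th percentile was subtracted from log2 intensity, spots of a probe were averaged, and no statistical test was run. A probe is called at least 2-fold different by size alone. Where 1 array was not well above background, the other was set against the lowest signal called above background there, or the probe's own where higher, as a bound. The brightest probe on average stands for a gene in a list. The members and the 11 lists were chosen with earlier results of these data known. Genes named in the text are every member, Rest, up to 4 genes of each list and genotype comparison whose difference, measured on both arrays, was largest and reached 1.5-fold, and the 3 nearest profiles of each member. Tbx22, Tecta, Tectb, Elavl3, Sox9, Sox5, Sox6 and Chad, and the list genes given as not well above background, were named after their values were seen. So were Lmx1a, Ptgds, Zic1, Cxcl12, Pax7, Myh8, Actc1 and Pax3. Tcf3, Tcf4 and Tcf12 were named as background. Some genes that the rule names are not reported here. Coordinates of probes come from the scanner files (mm9), and gene names follow RefSeq where an accession, symbol or synonym matched.

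Alternatives were normexp background correction (offset 50), quantile normalization, the array median, the table of the whole series, detection on both arrays, and the mean over all probes of a gene. Calculations used Python 3.11.15, numpy 2.4.6, pandas 2.3.3, matplotlib 3.10.9, R 4.3.3 and limma 3.58.1.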

Additional observations from a re-analysis of the deposited data

Results flagged for a closer look

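For 5 genes, CKO minus WT had opposite signs in brain and limb, each beyond 2 technical SDs, and the difference between the tissues was not tested because each group had 1 array. The brain difference minus the limb difference was 1.90 log2 for Foxc2, 1.72 for Twist1, 1.60 for Twist2, 1.07 for Foxc1 and 0.87 for Prrx2. The limb differences were smaller in size than those in brain. They were -0.23 for Foxc2, -0.45 for Twist1, -0.27 for Twist2, -0.19 for Foxc1 and -0.26 for Prrx2. The brain differences were 1.67, 1.27, 1.33, 0.88 and 0.61 in the same order.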

How the results depend on the processing

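Over the 13 probes, 200 values were recomputed under other settings: 164 moved by less than 1 technical SD and 36 moved further. The sign changed in 2 of them, both for Prrx1 probe 5 in limb, at -0.01 as reported, 0.02 with normexp and 0.01 with the array median. Of the 36, 30 came with normexp background correction, which adds an offset of 50 and so by construction narrows differences of dim probes, and 6 with the array median. The count of probes at least 2-fold higher in CKO brain was 1 with normexp, against 5 as reported. It was 4 with quantile normalization and with the array median. Apart from the normexp count, the other 39 counts stayed within 1.5 times. Quantile normalization and the deposited series table moved no probe by 1 technical SD. Over the lists, 158 of 198 recomputed medians moved less than that and 40 further. The sign changed in 8, for meninges and endothelium in limb and bHLH partners and neurons in brain, with medians of at most 0.09 in size. The largest shift of the median of all probes by a scaling was 0.098 log2, for limb minus brain in WT with the array median. No paired analysis was possible because each group had 1 array, and no array could be left out. Dim signals limit the brain values of Twist1, Twist2, Tnmd and Prrx1 probes 1, 4 and 6. Twist1 had a log2 level of -3.36 on WT brain, and its brain difference was 0.80 with normexp against 1.27 as reported.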
